A study of Cicer arietinum with 5 samples.

Results

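Chromosome 4 of chickpea (Ca4) was followed along its length, in seeds of 1 cultivar at a pair of developmental stages. Ca4 was cut into bins of 100 kb, and the outer 2 Mb at each end were left out. This gave 451 bins of the 3475 bins on the 8 chromosomes, which covered Ca4 at 2000001 to 47100000 of the kabuli genome version 1. Each bin was described by the number of listed methylcytosines and by their mean methylation level. The 10 bins at 13 to 14 Mb were compared with the other 441 bins.

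DNA came from whole seeds of Himchana 1, a small-seeded cultivar, grown in the field. Seeds at late-embryogenesis (S3, 2 libraries) were compared with seeds at mid-maturation (S5, 3 libraries), in a study of seed size and weight. No genotype, treatment or allele differed between the stages, and each DNA sample was made from several seeds. Whole genome bisulphite sequencing was used, in which unmethylated cytosines are read as T and methylated cytosines as C. A whole seed holds embryo, seed coat and endosperm, which chickpea seeds use up as they mature, and a change in the methylation of a tissue cannot be told apart from a change in its share of the seed.

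Plant DNA is methylated in 3 sequence contexts, CG, CHG and CHH, where H is any base but G. CG methylation is copied after replication by MET1, CHG methylation is kept by CMT3 together with a histone mark, and CHH methylation is set again by DRM2, guided by small RNAs, and by CMT2. The 3 kinds are dense on transposable elements, which crowd around centromeres, whereas gene-rich arms carry less of them and hold CG methylation in gene bodies. Ca4 is known to breeders for a hotspot of loci mapped for drought tolerance and seed traits.

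Only called methylcytosines were deposited, with no context, so an unlisted cytosine was either not called or not covered. A cytosine was placed in CG when a cytosine was listed on the opposite strand 1 base downstream, in CHG when the partner lay 2 bases downstream, and otherwise in an asymmetric class. The asymmetric class held CHH cytosines, and also CG and CHG cytosines whose partner was never listed. Levels are means over cytosines found in each of the 5 lists. On Ca4 there were 368731 such CG cytosines, 268361 CHG cytosines and 381552 asymmetric ones. These shared cytosines leave out any cytosine that fell out of the list at a stage.

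Between 1798307 and 2081631 methylcytosines per library were listed in the 451 bins. Median coverage over the whole lists was 12 to 14 reads. S5 replicate 2 was the shallowest library and stood apart along Ca4, with 6.89% of its Ca4 list at 2 to 7 Mb against 5.32% to 5.84% in the other 4 libraries. At 27 to 32 Mb it had 15.3% of its list, against 16.3% to 16.8% in the others. Values without this library are given for some of the blocks and for results that rest on it.

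The density of methylcytosines rose from a sparse start to a dense middle of Ca4. The 9 blocks of 5 Mb from 2 to 47 Mb, used for description, held on average 2282, 2315, 2972, 4433, 5807, 6359, 5912, 4325 and 4552 listed methylcytosines per bin. The block at 27 to 32 Mb was the densest and the block at 2 to 7 Mb the sparsest. Single bins ranged from 1394 at 8.3 to 8.4 Mb to 12671 at 42.9 to 43.0 Mb, with a median of 4073.

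The sparse bin at 8.3 Mb listed 1203 and 1333 methylcytosines at S3 and 1484, 1739 and 1213 at S5. It held 57.6 CHG methylcytosines per library, the fewest on Ca4, and only 20 of them were shared, too few to be tested. Its asymmetric cytosines had the highest level on Ca4, with 68.4% and 62.8% at S3 and 73.8%, 67.8% and 73.5% at S5. The stages overlapped there.

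The dense bin at 42.9 Mb listed 13275 and 13245 methylcytosines at S3 and 13449, 9783 and 13602 at S5. The low value was that of S5 replicate 2. CG cytosines made up 45.1% of its list and CHG cytosines 31.4%, against medians of 26.4% and 17.2% over the 451 bins. The 4 densest bins included 42.8, 42.9 and 43.0 Mb, next to each other, and 39.5 Mb. Their coverage of 11.8 to 13.3 reads was below the median bin coverage of 14.5 reads. Over all 451 bins, however, the listed number went with coverage (Pearson's r = 0.235, Spearman's rho = 0.583). The part of coverage in the listed number was not tested.

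The make-up of the list changed along the chromosome with its length. In the S3 libraries CHG cytosines formed 12.3% of the list at 2 to 7 Mb and 23.6% at 27 to 32 Mb, whereas CG cytosines formed 39.3% and 22.5%. Across the 451 bins the listed number went with the CHG share (Pearson's r = 0.860) and against the CG share (r = -0.580). The sparse end of Ca4 thus carried a larger share of CG and a smaller share of CHG methylcytosines than the dense middle. These correlations describe bins of the same 5 libraries, in which the number and the shares come from 1 list, and carry no test.

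Levels followed the same gradient in opposite directions in CHG and the asymmetric class. At S3 the CHG level was 84.4% at 2 to 7 Mb, 85.8% at 7 to 12 Mb and 88.1% to 89.2% in the other 7 blocks. The asymmetric level was 54.3% at 2 to 7 Mb and 49.0% at 32 to 37 Mb. CG levels varied less, from 92.4% to 93.7% at S3 over the 9 blocks. Across bins the listed number went with the CHG level (r = 0.60, 447 bins) and against the asymmetric level (r = -0.572, 451 bins), again as a description.

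**Figure D1:**
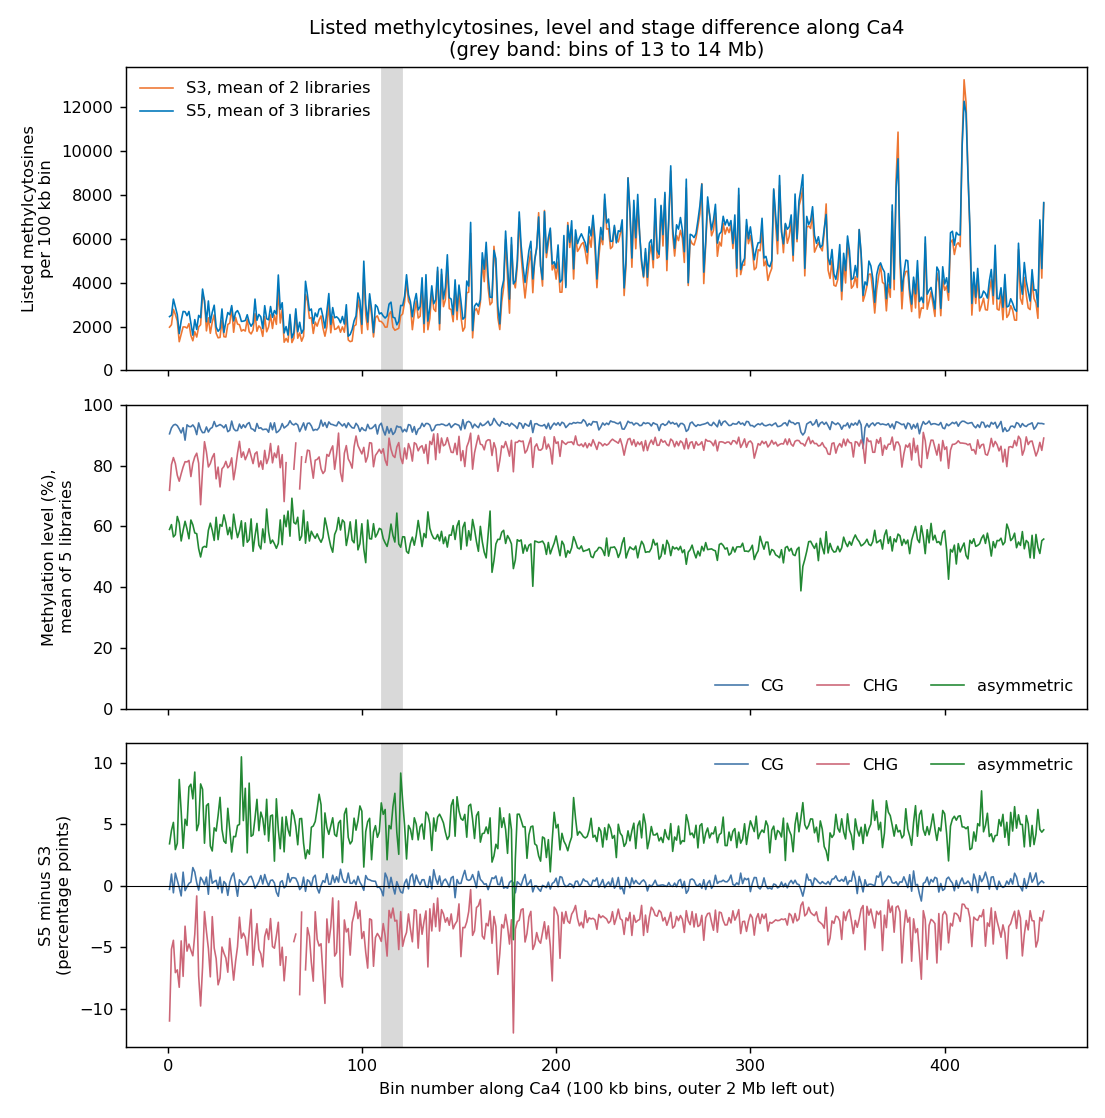
Listed methylcytosines per 100 kb bin (top, number), methylation level (middle, %) and S5 minus S3 (bottom, percentage points) by bin number along Ca4. Lines are stage means in the top panel, means of the 5 libraries in the middle panel and differences of stage means in the bottom panel, for bins with 50 or more shared cytosines. The list is shortest over the first 100 bins, CHG lies below 0 in every bin drawn, and 1 bin shows a deep fall in both CHG and the asymmetric class.

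The bins with the lowest CG and the lowest asymmetric level had high coverage. The lowest CG level, at 37.7 Mb, was 86.6% and 85.2% at S3 and 85.3%, 85.0% and 85.9% at S5, with a mean coverage of 37.5 reads. The stages overlapped in this bin. The lowest asymmetric level, at 34.5 Mb, was 35.7% and 35.2% at S3 and 40.8%, 39.9% and 42.2% at S5, with a coverage of 34.4 reads. The highest coverage on Ca4, 49.97 reads, was found at 20.7 Mb. The CG level was 90.9% there, but 92.8% and 93.7% in the deep bins at 15.1 Mb (28.0 reads) and 25.1 Mb (26.9 reads). The part of coverage in these levels was not tested.

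The stages were then compared over all of Ca4. The CG level averaged 93.4% and 93.1% at S3 against 93.5%, 93.2% and 93.7% at S5. The stages overlapped, and the difference of 0.230 percentage points lay within the replicate spread (two-sided exact permutation test, p = 0.4). The overlap rested on S5 replicate 2, without which the difference was 0.359 points and the stages did not overlap. With 2 libraries against 3 there are 10 splits and the smallest p is 0.1, so no such comparison could reach 0.05.

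CHG level was lower in every S5 library than in both S3 libraries. It was 88.7% and 88.4% at S3 and 85.6%, 84.9% and 86.4% at S5, a difference of -2.91 points with no overlap (exact permutation p = 0.1). The asymmetric level was 51.5% and 50.4% at S3 and 55.4%, 53.7% and 57.4% at S5, a difference of 4.50 points with no overlap (exact permutation p = 0.2). Over all cytosines listed in each library, in place of the shared ones, it was 45.7% and 44.5% at S3 and 46.8%, 45.5% and 48.5% at S5. That difference was 1.84 points and the stages overlapped (exact permutation p = 0.3), whereas the CHG difference over all listed cytosines was -3.0 points without overlap (exact permutation p = 0.2). In 1564 asymmetric cytosines whose next 2 bases were listed cytosines too, which can only be CHH, the level went from 46.9% ± 0.593 (SD, n = 2) to 54.8% ± 2.36 (SD, n = 3), with an exact permutation p of 0.1.

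Over Ca4 as a whole, numbers of listed methylcytosines differed without overlap only in the asymmetric class. The S3 libraries listed 920736 and 992755 asymmetric methylcytosines on Ca4 and the S5 libraries 1177250, 1145640 and 1080647, without overlap (exact permutation p = 0.1). CHG numbers went from 385454 ± 9603 (SD, n = 2) to 370907 ± 10278 (SD, n = 3), and the stages overlapped (exact permutation p = 0.3). CG numbers overlapped too (exact permutation p = 1.0). By 5 Mb block, CHG numbers were lower at S5 without overlap in the blocks from 17 to 42 Mb, and overlapped in the other blocks. Reads were also thinned to the mean coverage of S5 replicate 2, which then listed more than every other library in all 3 contexts. The asymmetric difference was 239005 with this library (exact permutation p = 0.2) and 142504 without it, and the libraries did not overlap in either case. The thinned CHG difference was 734 with it (exact permutation p = 1.0) and -15326 without it, where the libraries did not overlap.

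Each bin was tested by limma with Benjamini-Hochberg adjustment over the bins of all 8 chromosomes. Of 447 Ca4 bins with enough CHG cytosines, 416 were lower at S5 (adjusted p under 0.05), where the background over all bins was 93.8%. None was higher (background 0%, and 0 bins at an unadjusted p under 0.05). Of 451 bins, 315 were higher at S5 in the asymmetric class (background 69.8%) and 1 was lower (background 0.0576%). In CG, 1 bin was higher (background 0.432%) and 0 were lower (background 0.173%), with 54 and 4 at an unadjusted p under 0.05. The shares of called bins on Ca4 were close to those over all bins.

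These calls are not independent of each other, because every bin of a library carries the shift of the whole library. The model took the spread from all bins together (its prior degrees of freedom were infinite) and not from the 3 residual degrees of freedom of a bin. The asymmetric count of 316 fell to 0 without S3 replicate 1, S3 replicate 2 or S5 replicate 1 and rose to 438 without S5 replicate 2. The CHG count fell from 416 to 173 without S3 replicate 1.

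Counts of bins whose libraries did not overlap gave the same order of contexts. CHG was lower in all S5 libraries in 440 of 447 bins (background 98.3%) and higher in 0 (background 0%). The asymmetric class was higher in 395 of 451 bins (background 86.8%) and lower in 1 (background 0.0576%). CG was higher in 130 bins (background 25.7%) and lower in 24 (background 4.4%). All S5 libraries listed more asymmetric methylcytosines than all S3 libraries in 348 bins (background 75.4%), and fewer in 0 (background 0.115%). They listed fewer CHG methylcytosines in 127 bins (background 27.1%) and more in 0 (background 0.0863%), and fewer CG methylcytosines in 26 bins (background 6.04%) and more in 1 (background 0.0288%).

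The CHG difference was furthest below 0 at the sparse end of Ca4. At 2 to 7 Mb the CHG level was 84.6% and 84.1% at S3 and 79.0%, 78.0% and 80.2% at S5, a difference of -5.28 points. It was -4.17 points at 7 to 12 Mb, -3.03 at 12 to 17 Mb and -3.41 at 17 to 22 Mb. In the 5 blocks from 22 to 47 Mb it lay between -2.78 and -2.62. No block had overlapping libraries, and each had an exact permutation p of 0.1. Without S5 replicate 2 the differences were -4.73 points at 2 to 7 Mb and -2.30 points at 27 to 32 Mb.

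The gradient in CHG was smaller on a scale that allows for the distance of the level from 100%. As log2 odds the difference was -0.51 at 2 to 7 Mb, -0.44 at 7 to 12 Mb and between -0.43 and -0.33 in the other 7 blocks. Across 447 bins the CHG difference went with the S3 level of the bin (r = 0.710), but both use the S3 values. It went with the listed number at r = 0.491 and with coverage at r = 0.179. These values describe the bins and carry no test.

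Without S5 replicate 2 the block differences ran from 4.95 to 7.06 points in the asymmetric class and from -4.73 to -2.27 in CHG. With all 5 libraries the spread over blocks was smaller in the asymmetric class. Its difference was 5.39 points at 2 to 7 Mb, 4.75 at 7 to 12 Mb, 4.83 at 12 to 17 Mb, 4.06 at 17 to 22 Mb and between 4.21 and 4.81 in the other 5 blocks. At 2 to 7 Mb the level was 54.9% and 53.6% at S3 and 60.1%, 56.3% and 62.5% at S5, with S5 replicate 2 nearest to S3, and the difference was 7.06 points without that library. Over all listed cytosines the differences were smaller and in another order, with 1.25 points at 2 to 7 Mb, the smallest of the 9 blocks, and 2.05 points at 42 to 47 Mb, the largest. On that measure the libraries overlapped in 6 blocks and not in the 3 from 22 to 37 Mb. The S5 to S3 ratio of listed asymmetric methylcytosines was 1.40 at 2 to 7 Mb and 1.12 at 27 to 32 Mb, and without S5 replicate 2 it was 1.27 and 1.15. CG differences lay between 0.169 and 0.317 points and the libraries overlapped in each block. Without S5 replicate 2 the CG libraries overlapped in no block, and the differences ran from 0.284 to 0.420 points.

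**Figure D2:**
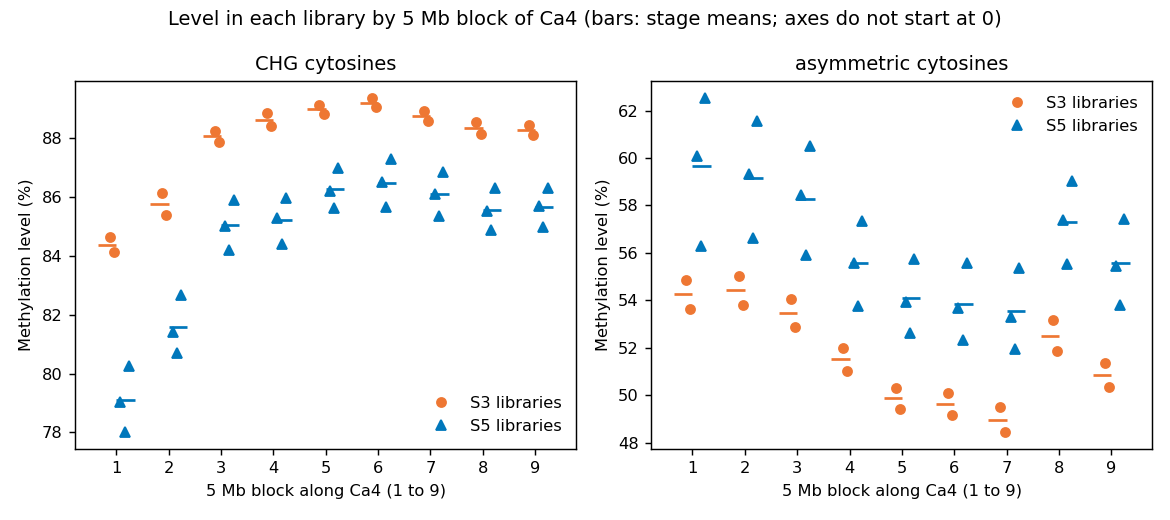
Methylation level (%) of CHG (left) and asymmetric cytosines (right) in each S3 (circles) and S5 library (triangles), by 5 Mb block from 2 to 47 Mb. Horizontal bars are stage means. All CHG triangles lie below the circles of their block, by most in blocks 1 and 2, and all asymmetric triangles lie above them.

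To find bins that moved differently from the genome, the mean over all bins of a library was subtracted before the limma fit. The genome-wide difference was -3.53 points in CHG, 4.58 in the asymmetric class and 0.228 in CG, as means over bins. In CHG, 54 Ca4 bins lay below this difference (background 12.3%) and 138 above it (background 29.3%). Of the 54 bins below, 28 lay at 2 to 12 Mb and 10 at 17 to 22 Mb. Of the 138 bins above, 112 lay at 22 to 47 Mb. On a log odds scale 32 bins lay below and 52 above, and without S3 replicate 1 the counts were 25 and 56.

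Few bins departed from the genome-wide difference in the other contexts. In the asymmetric class 8 bins lay above (background 1.04%) and 9 below (background 3.22%), and 5 of the 9 were at 17 to 22 Mb. Without S5 replicate 2 these counts were 29 and 37, and they were 3 and 2 without S3 replicate 1, 1 and 2 without S3 replicate 2, and 1 and 3 without S5 replicate 1. In CG 5 bins lay above (background 0.892%) and 4 below (background 1.55%), and leaving out S3 replicate 2 left 0.

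The bins with the largest changes were examined by library. In CG, the rise at 3.2 to 3.3 Mb was the only called one, from 93.0% and 92.0% at S3 to 94.1%, 94.1% and 93.8% at S5. The difference was 1.46 ± 0.371 points (SE, limma adjusted p = 0.0235), and the call was lost without S3 replicate 2 (adjusted p = 0.928) or S5 replicate 1 (adjusted p = 0.398). The next CG rises, at 10.8 Mb (1.33 points) and 15.6 Mb (1.29 points), did not pass the test (limma adjusted p = 0.0838 and 0.229).

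The CG difference furthest below 0 was at 40.7 Mb. Its level was 93.5% and 93.7% at S3 and 92.4%, 91.9% and 92.8% at S5, and the difference of -1.26 points just missed the threshold (limma adjusted p = 0.0545). Relative to the genome-wide difference it lay at -1.49 points and passed (limma adjusted p = 0.00027). The bins at 34.6 Mb and 16.7 Mb, at -1.09 and -1.22 points relative to it, also passed (limma adjusted p = 0.00012 and 0.0119). Their own differences of -0.862 and -0.987 points did not pass (limma adjusted p = 0.295 and 0.201). The relative difference at 16.7 Mb was lost at 10 reads and without S5 replicate 1 or 2 (limma adjusted p = 0.198, 0.0586 and 0.0815). It passed on log odds and without S5 replicate 3 (limma adjusted p = 0.00967 and 0.00307). Without S3 replicate 2 none of the 3 relative differences passed (limma adjusted p = 0.108 at 40.7 Mb, 0.0596 at 34.6 Mb and 0.25 at 16.7 Mb).

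The CHG falls of 3 bins stood out in size. At 2.0 to 2.1 Mb the level was 78.7% and 78.2% at S3 and 66.1%, 67.3% and 69.0% at S5, a difference of -11.0 ± 1.33 points (SE, limma adjusted p = 3.53e-14). At 3.6 to 3.7 Mb it was 73.5% and 72.5% at S3 and 63.9%, 61.4% and 64.3% at S5, the lowest CHG level on Ca4. Both falls passed the test relative to the genome-wide difference (limma adjusted p = 6.56e-07 and 9.68e-06) and in all 10 alternative fits with 100 kb bins. The CHG difference closest to 0 was -0.330 points, at 17.5 Mb.

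The largest CHG fall was at 19.7 to 19.8 Mb, in which the asymmetric class fell too. Its CHG level was 86.1% and 84.2% at S3 and 73.1%, 71.3% and 75.1% at S5, a difference of -12.0 ± 0.963 points (SE, limma adjusted p = 1.03e-31). Its asymmetric level was 49.7% and 47.8% at S3 and 44.6%, 41.1% and 47.3% at S5, a difference of -4.40 points (limma adjusted p = 0.0168). No other Ca4 bin had a lower asymmetric level at S5 than at S3. The CG level changed by only 0.214 points and the mean coverage was 18.2 reads.

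Both differences also departed from the genome-wide difference (limma adjusted p = 1.68e-11 in CHG and 3.9e-07 in the asymmetric class). These departures passed in all 10 alternative fits with 100 kb bins, with adjusted p up to 0.00503 in CHG and 0.00566 in the asymmetric class. The plain call of the asymmetric fall was lost when either S3 library or S5 replicate 1 or 2 was left out (adjusted p = 0.236, 0.317, 0.137 and 0.0536 in that order).

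The differences were largest in a short stretch of the bin, Ca4 at 19782701 to 19787250, 4550 bp long. This stretch was delimited by 8 CHG and 5 asymmetric regions called lower at S5 by the region search described next, and its values are a description. Its CHG level was 80.2% and 78.8% at S3 and 51.3%, 50.4% and 54.9% at S5, over 102 shared cytosines. Its asymmetric level was 48.8% and 47.1% at S3 and 31.4%, 25.3% and 32.1% at S5, over 196 shared cytosines. The stages were far apart in both contexts.

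In the same 4550 bp CG methylation was near the level of the rest of Ca4. It was 93.3% and 93.3% at S3 and 93.5%, 89.7% and 93.1% at S5, with overlap, over 60 shared cytosines. Asymmetric cytosines also dropped out of the list, with 775 and 792 listed at S3 and 472, 386 and 423 at S5. CHG numbers were 148 and 146 at S3 and 128, 128 and 115 at S5. Mean coverage of the shared CHG cytosines was 20.8 to 24.0 reads over the 5 libraries. Coverage was uneven within the stretch. At 19782751 to 19783050, 10 shared asymmetric cytosines had 10.1 and 18.5 reads at S3 and 14.1, 29.1 and 11.2 at S5. The part of coverage in these differences was not tested.

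The stretches of equal length on either side differed from it. In the 4550 bp before, the CHG difference was -8.93 points and the asymmetric difference -9.33 points, without overlap and over 16 and 101 shared cytosines. In the 4550 bp after, the CHG difference was -5.53 points without overlap, and the asymmetric libraries overlapped, with a difference of 0.302 points. In steps of 10 kb over the bin and its neighbours, the step with this stretch had a CHG difference of -21.1 points, and the next largest fall was -11.4 points. In the rest of the bin, without the stretch, CHG was 88.5% and 86.4% at S3 and 82.0%, 79.7% and 83.3% at S5 over 251 shared cytosines, a difference of -5.78 points without overlap. The asymmetric difference there was -0.803 points with overlap. No gene or element is named because no annotation of this build was used here.

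**Figure D3:**
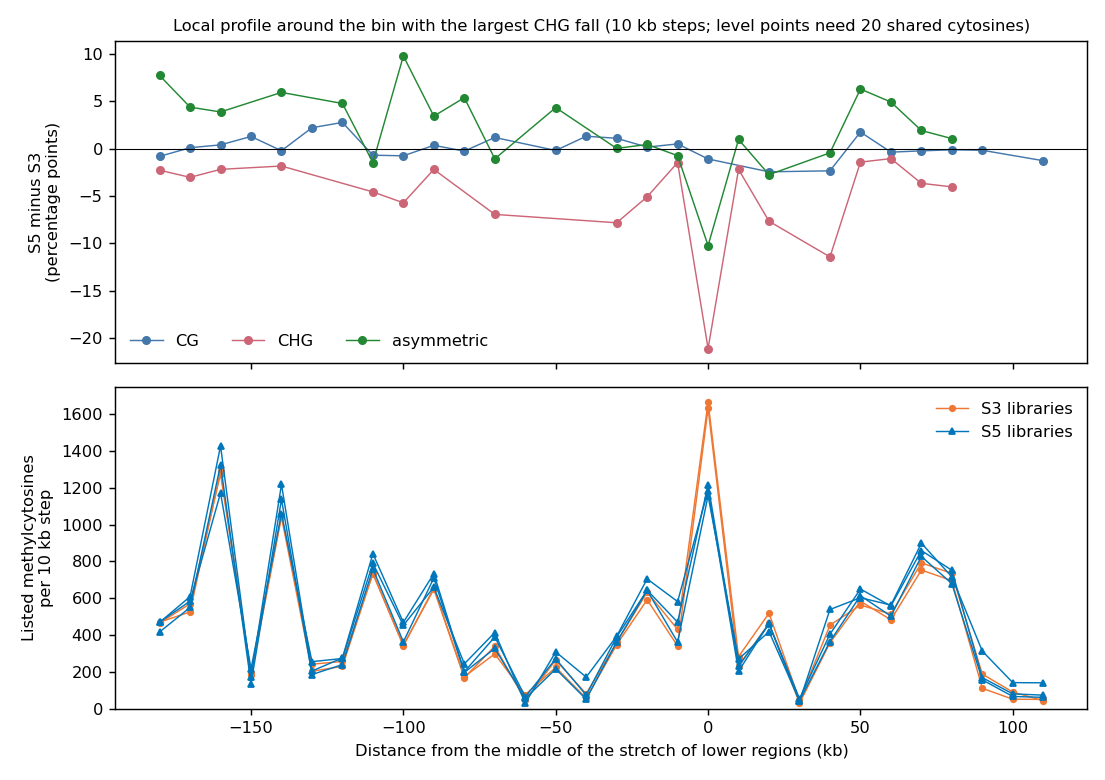
S5 minus S3 in level (top, percentage points) and listed methylcytosines in each library (bottom, number) in 10 kb steps over 300 kb, by distance from the middle of the 4550 bp stretch. Points in the top panel are steps with 20 or more shared cytosines. At 0 kb CHG and asymmetric differences reach -21.1 and -10.2 points while CG stays near 0, and the S3 libraries list more methylcytosines than the S5 libraries.

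Asymmetric rises were largest at 5.7 to 5.8 Mb, where the level was 56.7% and 54.4% at S3 and 67.0%, 63.6% and 67.4% at S5. The difference was 10.5 ± 2.49 points (SE, limma adjusted p = 0.00259). Rises of 9.22 points at 3.3 Mb and 9.14 points at 13.9 Mb followed (limma adjusted p = 0.00448 and 0.00263). All 3 lost their call without S3 replicate 1, S3 replicate 2 or S5 replicate 1, as the asymmetric class as a whole did.

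Differentially methylated regions were searched in windows of 100 bp moved by 50 bp, by a logistic regression on reads, and a window was kept at q up to 0.01 where the stages were at least 25 points apart. This test treats reads as independent and does not use the spread between replicates. On Ca4, 253 CHG regions were lower at S5 and 1 was higher, 490 asymmetric regions were higher and 50 lower, and 34 CG regions were higher and 44 lower. Of the CHG windows tested on Ca4, 0.517% were lower (background 0.439%) and 0.00126% higher (background 0.00404%). Of the asymmetric windows, 0.596% were higher (background 0.58%) and 0.0666% lower (background 0.0669%). Of the CG windows, 0.0468% were higher (background 0.0418%) and 0.0683% lower (background 0.0731%).

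Regions were counted by block and set against the shared cytosines of each block. From 2 to 47 Mb the 9 blocks held 27, 23, 15, 67, 24, 22, 28, 29 and 18 CHG regions lower at S5. The count was highest in the fourth block, at 17 to 22 Mb, with 2.34 regions per 1000 shared CHG cytosines. The sparse blocks at 2 to 7 Mb and 7 to 12 Mb had more per 1000 (3.61 and 2.75), and the other 6 blocks had 0.408 to 1.05. The fourth block also held 15 of the 50 asymmetric regions lower at S5. The bin at 19.7 Mb had 8 of its CHG regions and 5 of its asymmetric regions, more than any other Ca4 bin in both cases. Asymmetric regions higher at S5 numbered 39 to 66 per block. Per 1000 shared asymmetric cytosines there were 2.99 at 2 to 7 Mb and 0.579 at 27 to 32 Mb, the highest and the lowest of the 9 blocks. Of these 490 regions, 361 had all their cytosines on 1 strand.

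**Figure D4:**
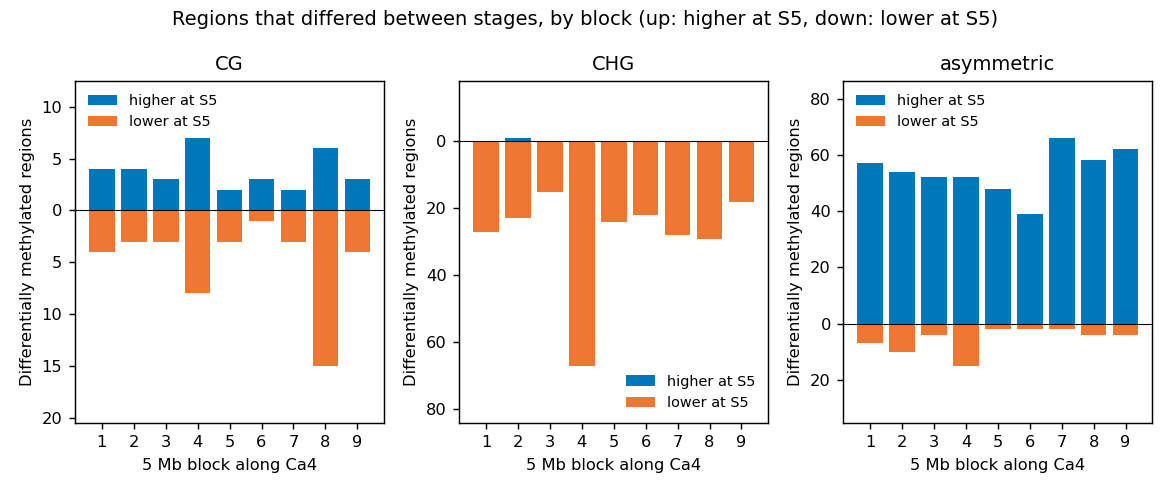
Number of differentially methylated regions by 5 Mb block from 2 to 47 Mb in CG, CHG and the asymmetric class. Bars above 0 are regions higher at S5 and bars below 0 regions lower at S5. Block 4 holds 67 of the 253 CHG regions lower at S5, and asymmetric regions higher at S5 number 39 to 66 in each block, counts that are not divided by the cytosines of the block.

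The region of the largest difference was taken in each context and direction. In the asymmetric class it was Ca4 at 31881351 to 31881450, with 3 cytosines on the reverse strand. Its level was 21.1% and 22.7% at S3 and 69.1%, 79.5% and 66.7% at S5 (logistic regression q = 6.7e-16). The 4 CG cytosines in it differed by -1.78 points. The largest asymmetric fall, Ca4 at 19782751 to 19783050, lay in the 4550 bp stretch, with 67.3% and 67.0% at S3 and 30.5%, 18.2% and 34.8% at S5 over 10 cytosines (logistic regression q = 1.57e-14).

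The largest CHG fall was at 21386651 to 21386800, also in the fourth block, with 86.2% and 59.5% at S3 and 32.3%, 20.9% and 27.8% at S5. The S3 libraries were far from each other there. The lone CHG region higher at S5, Ca4 at 7749151 to 7749250, had 57.9% and 69.0% at S3 and 93.3%, 100% and 92.3% at S5 over 3 cytosines. Its coverage was only 6.33 to 10 reads.

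In CG the largest rise was at 41280301 to 41280450, from 54.3% and 24.6% at S3 to 88.4%, 77.6% and 71.4% at S5. It rested on 3 cytosines of the forward strand and on S3 libraries far from each other, so that its difference of 39.7 points became 24.9 without S3 replicate 2 and 54.6 without S3 replicate 1. The largest CG fall was at 22893501 to 22893650, from 77.2% and 84.1% at S3 to 48.4%, 50% and 32.2% at S5 over 4 cytosines (logistic regression q = 1.13e-07).

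The 10 bins at 13 to 14 Mb were sparse in methylcytosines. They listed 1996 to 2940 per bin and ranked between 313 and 420 of the 451 bins, from the densest. Their mean was 2391 per bin, against 4380 in the other 441 bins and 2795 in the 40 bins within 2 Mb on either side. CG cytosines formed 29.1% to 34.0% of their list, depending on the library.

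The levels of these 10 bins were compared between the stages. CHG level was 86.9% and 86.5% at S3 and 83.5%, 83.0% and 84.4% at S5, without overlap (exact permutation p = 0.1). Asymmetric level was 53.6% and 52.5% at S3 and 59.1%, 55.7% and 61.1% at S5, without overlap (exact permutation p = 0.2). CG went from 91.8% ± 0.330 (SD, n = 2) to 91.9% ± 0.191 (SD, n = 3), and its libraries overlapped (exact permutation p = 0.7).

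With all 5 libraries, the stage difference of these bins did not differ from that of the other 441 bins beyond the spread between libraries. The level at 13 to 14 Mb minus that of the other bins was 2.17 and 2.12 points at S3 and 3.69, 2.07 and 3.77 points at S5 in the asymmetric class, a change of 1.03 points (exact permutation p = 0.4). The low S5 value was that of S5 replicate 2, without which the change was 1.58 points and the stages did not overlap. Over all listed cytosines the asymmetric change was 0.129 points (exact permutation p = 1.0). The change was -0.130 points in CHG (exact permutation p = 0.3) and -0.152 points in CG (exact permutation p = 0.4), and the libraries overlapped in both. A p of this size does not show that the bins changed alike. Against only the 40 neighbouring bins the CHG change was 0.187 points, and in cytosines that can only be CHH the asymmetric change was -1.24 points.

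Single bins at 13 to 14 Mb fell within the range of the chromosome. CHG was lower without overlap in all 10 (background 98.3%), with differences from -5.73 points at 13.2 Mb to -1.83 points at 13.5 Mb. Of these 10 bins, 6 passed the limma test (background 93.8%). Their median difference was -2.85 points against -2.98 points in the other bins, and they held 92 to 308 shared CHG cytosines each. The part of this number in the count of calls was not tested. The asymmetric class was higher without overlap in 8 (background 86.8%), of which 7 passed the limma test (background 69.8%). In CG 4 bins lay above 0 and 6 below, against 323 and 118 of the other bins. The largest rise was at 13.9 Mb, from 49.0% and 46.3% at S3 to 56.8%, 53.5% and 60.0% at S5, and it also departed from the genome-wide difference (limma adjusted p = 0.00775), a call lost without S3 replicate 2 (adjusted p = 0.16) or S5 replicate 1 (adjusted p = 0.0603). All S5 libraries listed more asymmetric methylcytosines than all S3 libraries in 10 of the 10 bins (background 75.4%).

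**Figure D5:**
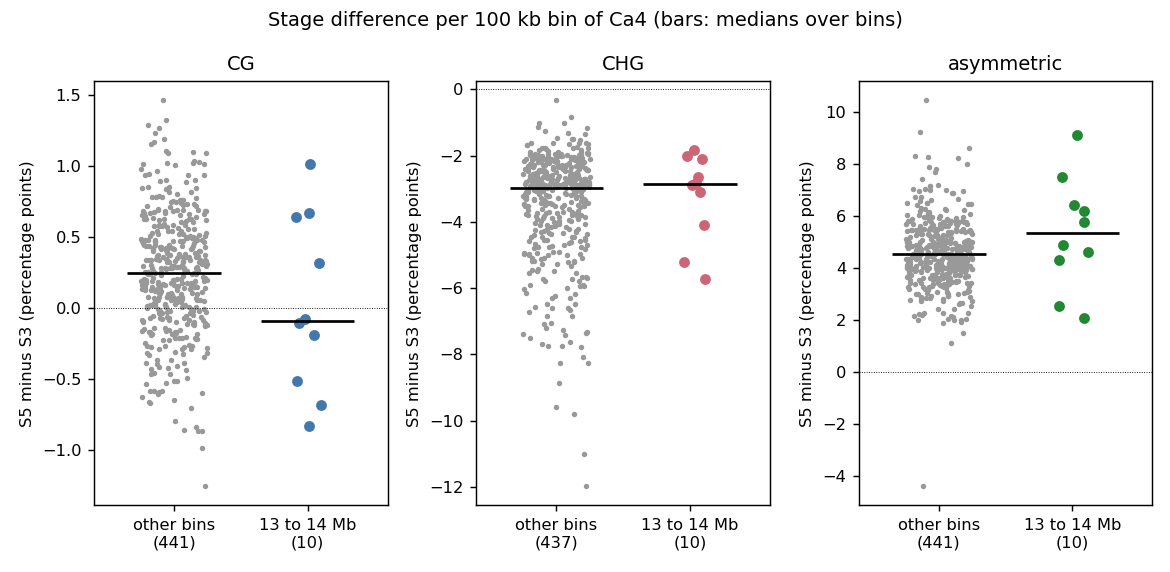
S5 minus S3 in level (percentage points) of each 100 kb bin at 13 to 14 Mb and of the other Ca4 bins, in CG, CHG and the asymmetric class. Points are bins with 50 or more shared cytosines and bars are medians over bins. The 10 bins fall within the range of the others, with medians of -0.0936 points in CG, -2.85 points in CHG and 5.33 points in the asymmetric class against 0.245, -2.98 and 4.54 points.

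In these 10 bins 10 differentially methylated regions were found, of which 7 were asymmetric regions higher at S5. This was 1 region per bin, against 1.93 per bin over the 451 bins, counts not divided by the cytosines of these sparse bins. Per 1000 shared CHG cytosines, CHG regions lower at S5 numbered 0.546 here and 0.943 over the 451 bins. Per 1000 shared CG cytosines, CG regions higher and lower at S5 each numbered 0.197 here, against 0.0922 and 0.119. Asymmetric regions higher at S5 numbered 1.58 per 1000 shared asymmetric cytosines here and 1.28 over the 451 bins. A CG region lower at S5, Ca4 at 13924601 to 13924750, went from 95.6% and 91.2% at S3 to 65.7%, 62.7% and 57.9% at S5 over 6 cytosines (logistic regression q = 8.15e-11). A CHG region lower at S5, Ca4 at 13924651 to 13924800, lay on top of it, with 74.1% and 72.9% at S3 and 50%, 43.6% and 33.3% at S5. Both symmetric contexts were thus lower at S5 at that place. A CG region higher at S5, Ca4 at 13868351 to 13868450, had 47.2% and 46.3% at S3 and 82.1%, 75% and 64.4% at S5 over 3 cytosines.

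The asymmetric regions at 13 to 14 Mb rose by 25.3 to 29.5 points. The one with most cytosines, Ca4 at 13138151 to 13138300, had 11, all on the reverse strand, and went from 30.4% and 29.1% at S3 to 55.0%, 56.0% and 59.4% at S5. At 13534551 to 13534700 the level was 31.1% and 34.2% at S3 and 54.1%, 67.3% and 64.2% at S5, and 2 CHG cytosines there differed by 32.6 points. In the other asymmetric regions that held shared CHG cytosines, 1 to 4 each, the CHG differences ran from -19.6 to 5.79 points. At 13795201 to 13795300 it was 24.2% and 38.1% at S3 and 60.0%, 54.9% and 67.1% at S5.

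Ca4 was finally set against the other 7 chromosomes, with 2696 bins. The change of Ca4 minus that of the others was 0.00574 points for CG, 0.0348 points for CHG and 0.0396 points for asymmetric cytosines (exact permutation p = 0.9, 0.5 and 0.3), and the libraries overlapped in each context. The asymmetric level of Ca4 was above the pooled mean of the other 7 chromosomes by 0.529 to 0.619 points in all 5 libraries. It was not the highest of single chromosomes. Ca8 had stage means of 51.4% at S3 and 55.8% at S5, against 51.0% and 55.5% on Ca4. In CG and CHG the libraries of Ca4 lay between -0.0489 and 0.0664 points of the pooled mean.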

How the data were processed

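Himchana 1 seeds were profiled by bisulphite sequencing at S3 (2 libraries) and S5 (3 libraries). The authors filtered reads with NGS QC Toolkit, mapped them uniquely with Bismark 0.14.3 to kabuli genome version 1, took the error rate from chloroplast reads, and called methylcytosines by a binomial test (p of 0.0001 or less, 5 or more reads). In the deposited lists, coverage is a count of reads per cytosine and level is the percent of them read as C. Their product gave whole methylated reads (tolerance 0.011 percentage points). Positions given on more than 1 line were dropped, 148 to 248 lines per library on the placed chromosomes.

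Bins needed 50 shared cytosines of a context. They were fitted with limma 3.58.1 (R 4.3.3), stage as the only factor, with a variance trend on the number of cytosines, and the threshold was an adjusted p of 0.05. Stage means were compared by exact permutation over 10 splits. Regions came from logistic regression in 100 bp windows with 3 or more cytosines, merged within 50 bp. Bins named are, per context, the 3 largest rises and falls without overlap, the extremes in number and level, and the 10 at 13 to 14 Mb. Regions named are the largest per context and direction, and the largest 5 at 13 to 14 Mb. The 13138151 region, the bins of high or low coverage or number beyond those extremes, the smallest CHG difference, the 5 Mb blocks, their values on log odds or without S5 replicate 2, the rates of regions per 1000 shared cytosines, the thinned numbers without S5 replicate 2, the certain CHH cytosines, the 4550 bp stretch and the bin without it were chosen after their values were seen. Scripts (Python 3.11.15, numpy 2.4.6, pandas 2.3.3, scipy 1.17.1) were tested on simulated data. Ca4, its stretches and all lists were chosen with earlier results of these data known. PCR copies cannot be told from molecules, so coverage limits precision only as counting error. Alternatives left out each library, set 10 reads, dropped cytosines over 3 times the median coverage, and changed bin size, scale and weights. The unplaced scaffolds were left out.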

Additional observations from a re-analysis of the deposited data

How the results depend on the processing

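Of 105 alternatives to the Ca4 levels and contrasts, 97 kept the direction. The CG difference of Ca4 was -0.0866 points over all listed cytosines of each library and -0.0131 weighted by coverage, and that of Ca4 against the other chromosomes was -0.0108 and -0.0701, and -0.0135 to 0.0236 when a library was left out. The 13 to 14 Mb contrast turned to 0.187 in CHG against neighbouring bins and to -1.24 in certain CHH cytosines, an alternative chosen after seeing the data. Listed CG numbers differed by -11108 to 21639 without 1 library and by -7662 at 10 reads, and listed CHG by 734 after thinning, a turn that rested on S5 replicate 2. Thinned without that library, CHG differed by -15326 and CG by -10250 (added after seeing the data). Causes were not tested.

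Bins called in CG, CHG and the asymmetric class (1, 416 and 316) were 0, 89 and 72 with 500 kb bins and 11, 678 and 544 with 50 kb bins, where fewer or more bins were tested. Counts in this paragraph without a share beside them were not set against the other chromosomes. The called share in CHG was 98.9% on Ca4 and 99.9% over all bins with 500 kb bins, and 85% and 86.1% with 50 kb bins. Called CG bins were 9 at 10 reads (2% on Ca4, 2.27% over all bins), 2 on log odds (0.443% and 0.317%) and 21 with the replicate block (4.66% and 5.01%). Without 1 library the counts ranged from 0 to 9, 173 to 436 and 0 to 438. Departures from the genome-wide difference (9, 192 and 17) were 3, 57 and 1 with 500 kb bins, 1, 115 and 7 with 1 prior variance, and 0 to 17, 81 to 216 and 3 to 66 without 1 library. They were 20 in CG with 50 kb bins, 117 in CHG with 200 shared cytosines, 84 in CHG on log odds, and 36 and 11 in the asymmetric class at 10 reads and without high coverage. Regions (78, 254 and 540) were 3, 16 and 9 at 40 points, 13, 68 and 221 with 5 cytosines, and 33, 111 and 266 at 10 reads. Without 1 library they were 56 to 109, 203 to 302 and 524 to 795.

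Among named bins, CG at 15.6 Mb turned to -0.408, and the asymmetric class at 13.2 Mb to -0.533 and at 13.7 Mb to -1.12, over all listed cytosines. At 13.2 Mb it was -0.032 with the replicate block and -0.032 to 3.87 without 1 library (lowest without S5 replicate 3, highest without S5 replicate 2). Whether the replicate numbers pair samples could not be told. Deviations correlated at -0.008 to 0.180 in the 2 pairs of equal number, but the deviations of 2 S3 libraries are mirror images of each other. With the block the Ca4 differences were 0.103, -3.29 and 3.56 points. Depth limits what an unlisted cytosine means, and the 3 largest CHG falls kept their direction and call in each fit run with 100 kb bins.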
